A study of Mus musculus with 54 samples.

Results

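Fatty acid synthesis was represented by 10 genes, chosen by gene name as enzymes that make fatty acids from acetyl-CoA and the transcription factors that control them: Scd1, Scd2, Fasn, Acaca, Acacb, Acly, Elovl6, Me1, Srebf1 and Mlxipl. All 10 were found among the 55487 rows of the expression table, and all 10 passed the filter for testing, which asked for 5 or more libraries with 1 TPM or above. TPM is a transcript's abundance after correction for its length, with every library scaled to an equal total. Elovl6 reached a TPM of 1 in exactly 5 libraries, Acacb in 10, Scd1 in 12, Scd2 in 20 and Acaca in 45, and the other 5 genes did so in all 48. A gene near the filter can pass through the group in which it is high, so the share of these genes that passed is not a result.

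The RNA came from SGLT2-positive early proximal tubules, the first nephron segment after the glomerulus, captured by laser from kidneys of male DBA mice aged 14 weeks. Akita mice carry Ins2 Akita/+, a germline mutation of an insulin gene that causes diabetes through a lack of insulin. Non-diabetic mice were Ins2+/+ littermates. Within each background the mice were knockouts for Sglt1 (Sglt1-/-) or wild type (Sglt1+/+). Slc5a1 encodes Sglt1, which takes up glucose further along the tubule. All groups were treated for 2 weeks. In Akita wild type there were 5 libraries with semaglutide (a GLP-1 receptor agonist, 3 nmol/kg per day under the skin), 5 with dapagliflozin (an SGLT2 inhibitor, 10 mg/kg diet) and 6 with vehicle. Akita knockout mice received dapagliflozin (6 libraries) or vehicle (6 libraries). Non-diabetic mice gave 6 knockout and 4 wild-type libraries with dapagliflozin, and 5 knockout and 5 wild-type libraries with vehicle. The labels tie no library to an animal, so p-values reflect how much the samples of a group differ, and some of that spread could be technical. Sequencing depth cannot be read from TPM and is unknown.

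Cells make fatty acids from citrate that leaves the mitochondrion. Acly (ATP citrate lyase) splits it into acetyl-CoA, Acaca and Acacb (the acetyl-CoA carboxylases) turn acetyl-CoA into malonyl-CoA, and Fasn (fatty acid synthase) joins these units into palmitate with NADPH that Me1 (malic enzyme) helps to supply. Elovl6 lengthens palmitate, and Scd1 and Scd2 (stearoyl-CoA desaturases) add a double bond to the saturated products. In liver and fat, insulin drives these genes through SREBP-1, encoded by Srebf1, and glucose drives them through ChREBP, encoded by Mlxipl. The proximal tubule is known mainly as a consumer of fatty acids, which it burns for transport.

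Slc5a1, the gene targeted in the knockouts, was at 0 to 0.123 TPM in the 23 knockout libraries and 0.814 to 4.29 TPM in the 25 wild-type libraries. Slc5a2, which encodes SGLT2 and marks the captured segment, was at 82.5 to 275 TPM in knockout and 96.4 to 264 TPM in wild-type libraries. Between 8465 and 11419 genes reached a TPM of 1 in a library. Of the most specific fat-cell genes, Adipoq was at 0 in 41 libraries and Plin1 in 36. Plin1 reached 1 TPM in 2 libraries, non-diabetic knockout vehicle sample 3 (2.67 TPM) and non-diabetic wild-type vehicle sample 5 (2.42 TPM), and was at most 0.961 TPM in the other 46. Scd1 is abundant in fat cells, and its value was 10.6 TPM in the first of these libraries, the highest of the series. In the second it was 2.87 TPM, below the highest value of its own group, 4.003 TPM. These 2 libraries are called Plin1-containing below, although Plin1 was above 0 in 12 libraries. Values without these 2, an alternative chosen after seeing the data, are given beside the Scd1 and Fasn differences drawn from them.

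Promoters of 3 of the genes are shown because Fasn and Me1 led the diabetes comparison below and Mlxipl was the most abundant. RefSeq (GRCm38.p6) supplied the 250 bases before each transcript start for 8 of the 10 genes, at 12 starts, and held none for Scd1 and Scd2. The sequences run 5′ to 3′ on the gene's strand, and capitals mark matches to 3 motifs, searched on both strands. CCAAT is the core bound by NF-Y, GGGCGG is a GC box of the Sp1 type, and CACGTG is an E-box.
Fasn, chr11:120824548-120824797, minus strand: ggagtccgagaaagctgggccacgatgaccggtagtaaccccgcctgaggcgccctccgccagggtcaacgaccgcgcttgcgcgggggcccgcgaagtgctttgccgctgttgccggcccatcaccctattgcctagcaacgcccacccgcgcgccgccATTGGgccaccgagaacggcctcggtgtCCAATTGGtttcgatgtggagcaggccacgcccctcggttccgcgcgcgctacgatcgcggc
Me1, chr9:86695915-86696164, minus strand: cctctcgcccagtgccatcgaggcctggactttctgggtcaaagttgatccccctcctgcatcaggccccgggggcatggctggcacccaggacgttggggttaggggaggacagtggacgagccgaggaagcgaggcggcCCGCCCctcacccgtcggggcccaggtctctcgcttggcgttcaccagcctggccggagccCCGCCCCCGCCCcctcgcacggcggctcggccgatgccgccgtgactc
Mlxipl, chr5:135089640-135089889, plus strand: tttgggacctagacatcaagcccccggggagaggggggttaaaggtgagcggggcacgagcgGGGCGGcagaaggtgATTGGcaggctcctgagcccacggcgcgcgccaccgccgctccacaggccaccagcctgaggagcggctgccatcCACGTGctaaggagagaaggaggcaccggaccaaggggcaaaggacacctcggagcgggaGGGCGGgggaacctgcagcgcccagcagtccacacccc
The Fasn window held 3 matches to CCAAT, at 90, 62 and 59 bases before the start, the last 2 of which overlap. The Me1 window held 3 matches to GGGCGG, at 109, 48 and 42 bases, and the Mlxipl window held 1 CACGTG at 98 bases, 1 CCAAT and 2 GGGCGG. Among 32851 promoter windows of the same length, 33.8% held CCAAT, 32.7% GGGCGG and 6.02% CACGTG. The sterol regulatory element letters TCACNCCAC, of the kind bound by SREBP, were also searched on both strands and were present in 1.05% of all windows and at 1 of the 12 starts, a second start of Mlxipl. These matches describe the letters only.

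The transcript levels, which TPM makes comparable between genes of different length, placed the regulator Mlxipl far above the enzymes. Over the 48 libraries Mlxipl had 56.5, 119 and 191 TPM (lowest, median and highest). Me1 had 11.6, 25.7 and 47.9 TPM and Acly 4.80, 9.18 and 15.7 TPM, so the genes that supply NADPH and acetyl-CoA were the most abundant of the enzymes. Srebf1 had a median of 5.51 TPM, Fasn 3.07 TPM and Acaca 2.84 TPM. The desaturases Scd2 and Scd1, the second carboxylase Acacb and the elongase Elovl6 had medians of 0.775, 0.652, 0.706 and 0.528 TPM. For these 4 low genes, fold changes on the log2(TPM + 1) scale understate the change. Ordered from highest to lowest group mean, neighbouring groups differed by less than the larger of their SDs for each of the 10 genes.

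**Figure D1:**
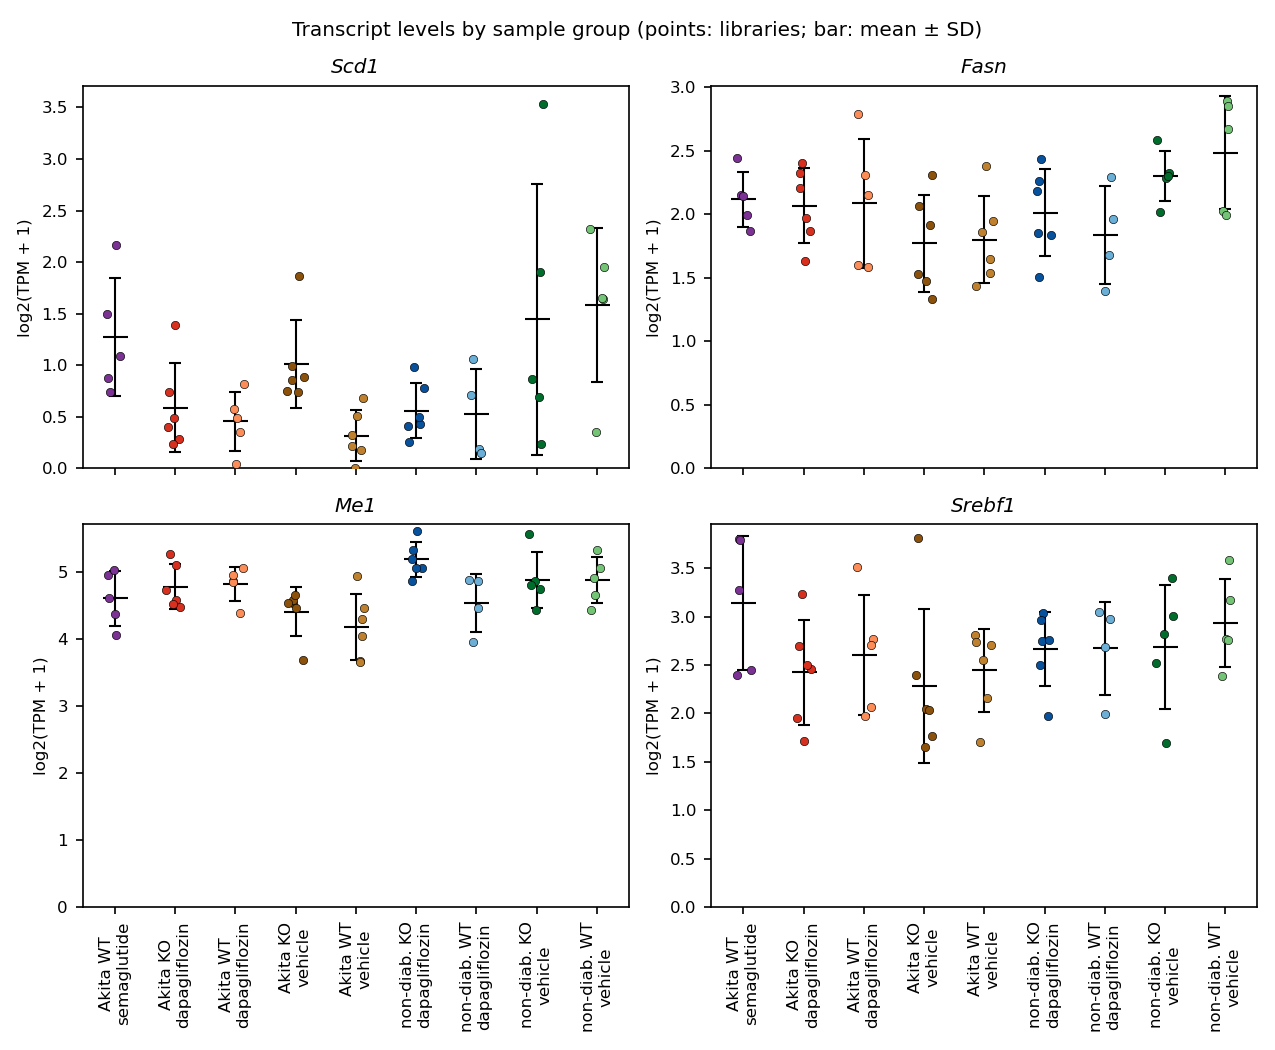
Transcript levels of Scd1, Fasn, Me1 and Srebf1 as log2(TPM + 1) in the 9 sample groups. Points are libraries, and bars give the mean ± SD of the log2 values. Scd1 was lowest in Akita wild-type vehicle tubules and spread most in non-diabetic knockout vehicle tubules, where 1 library reached 10.6 TPM.

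Diabetes was addressed by setting Akita against non-diabetic vehicle tubules. In wild-type mice the desaturase Scd1, the synthase Fasn and the NADPH source Me1 had the lowest values relative to non-diabetic tubules, and none of the 10 genes passed the threshold. Scd1 had 0, 0.207 and 0.610 TPM (lowest, median and highest) in the 6 Akita vehicle libraries, against 2.13, 0.277, 2.14, 2.87 and 4.003 TPM in the 5 non-diabetic vehicle libraries. All 6 Akita libraries lay below the non-diabetic median, and 1 non-diabetic library, at 0.277 TPM, lay within the Akita range. Scd1 averaged 0.263 ± 0.221 TPM in Akita and 2.28 ± 1.36 TPM in non-diabetic tubules (SD), a log2 difference of −1.27 ± 0.34 (SE) with an adjusted p of 0.251 in limma. Without the Plin1-containing library it was −1.17. In a bulk sample, fewer cells of a type and less RNA per cell cannot be told apart.

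Fasn had 1.70, 2.38 and 4.20 TPM (lowest, median and highest) in Akita wild-type vehicle libraries, against 3.07, 6.44, 5.36, 6.22 and 2.98 TPM in non-diabetic ones. Its values overlapped, with 3 non-diabetic libraries above every Akita library, and the log2 difference was −0.69 ± 0.22 (limma adjusted p = 0.425), or −0.59 without the Plin1-containing library. Me1 had 11.6, 17.1 and 29.7 TPM (lowest, median and highest) in Akita libraries, against 39.3, 24.2, 32.4, 29.2 and 20.6 TPM in non-diabetic libraries. One Akita library at 29.7 TPM reached into the upper non-diabetic values, and the log2 difference was −0.70 ± 0.23 (limma adjusted p = 0.425). Srebf1, the insulin-driven regulator, averaged 4.64 ± 1.48 TPM in Akita and 6.98 ± 2.64 TPM in non-diabetic tubules. Mlxipl, the glucose-driven regulator, averaged 109 ± 39.3 TPM in Akita and 115 ± 30.4 TPM in non-diabetic tubules. Acacb was the one gene with a positive difference, at 1.51 ± 1.35 TPM in Akita and 0.681 ± 0.268 TPM in non-diabetic tubules.

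For wild-type diabetes limma called 0 of the 10 genes, with 3 at an unadjusted p under 0.05. Across all 12742 genes it called 3 (0.0235%), with 969 at an unadjusted p under 0.05. The 10 genes had a median log2 difference of −0.36 and 9 of them were negative, beside a median of −0.15 over all genes. That shift of all genes touches the sign of the small differences. The 4 libraries with the fewest genes at 1 TPM, 8465 to 8869, were all Akita vehicle libraries (2 wild-type, 2 knockout), and nuclear protein-coding genes took 5.98% to 6.66% of their TPM. Without them the median over all genes was −0.015, and the differences were −1.16 for Scd1, −0.63 for Fasn and −0.44 for Me1. With median-of-ratios scaling, rescaling to nuclear protein-coding genes or quantile normalization, 6 of the 10 were negative. Scd1 stayed at −1.26 and Fasn at −0.52 with median-of-ratios scaling, whereas Acly, Elovl6 and Mlxipl were on the other side of 0 with each of the 3 scalings.

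In Sglt1 knockouts Fasn had 1.53, 2.33 and 3.96 TPM (lowest, median and highest) in Akita vehicle libraries, against 3.06, 3.88, 4.01, 4.995 and 3.92 TPM in non-diabetic vehicle libraries. The ranges overlapped, and the log2 difference was −0.53 ± 0.22 (limma adjusted p = 0.303), or −0.52 without the Plin1-containing library. Me1 differed by −0.47 ± 0.23 (limma adjusted p = 0.338) and averaged 20.8 ± 4.46 TPM in Akita and 29.6 ± 9.85 TPM in non-diabetic knockouts. Scd1 had 0.674, 0.829 and 2.64 TPM (lowest, median and highest) in Akita knockouts, against 0.179, 0.822, 10.6, 0.614 and 2.75 TPM in non-diabetic knockouts. These medians were close, and the non-diabetic mean of 2.99 ± 4.35 TPM came largely from 1 library with Plin1 above 1 TPM. The log2 difference was −0.43 with this library and 0.09 without it. In knockouts limma called 0 of the 10 genes (2 at an unadjusted p under 0.05) and 0 of all genes (0%), with 1836 at an unadjusted p under 0.05. The difference between the diabetes effects of the genotypes was tested for each gene, and 0 of the 10 were called (0% of all genes, 406 at an unadjusted p under 0.05).

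Averaged over both genotypes, diabetes came closest to the threshold in the same 3 genes. Fasn averaged 2.55 TPM in 12 Akita and 4.39 TPM in 10 non-diabetic libraries, with a log2 difference of −0.61 ± 0.16 (limma adjusted p = 0.0571). Me1 averaged 19.4 TPM in Akita and 29.4 TPM in non-diabetic libraries, a difference of −0.59 ± 0.16 (limma adjusted p = 0.0640). For each of these genes 11 of 12 Akita libraries lay below the non-diabetic median of their genotype. Scd1 averaged 0.685 TPM in Akita and 2.64 TPM in non-diabetic libraries, a difference of −0.85 ± 0.24 (limma adjusted p = 0.0735). Limma called 0 of the 10 genes, with 4 at an unadjusted p under 0.05, and 71 of all genes (0.557%), with 2360 (18.5%) at an unadjusted p under 0.05. Some of the values depended on single libraries and on the scaling. With both Plin1-containing libraries left out, the differences were −0.54 for Scd1, −0.56 for Fasn and −0.60 for Me1. Without the 4 libraries with the fewest genes they were −0.75 for Scd1, −0.49 for Fasn and −0.37 for Me1, with a median over all genes of −0.04, beside −0.20 with them. With the 3 scalings they were −0.75 to −0.76, −0.40, and −0.31 to −0.33.

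**Figure D2:**
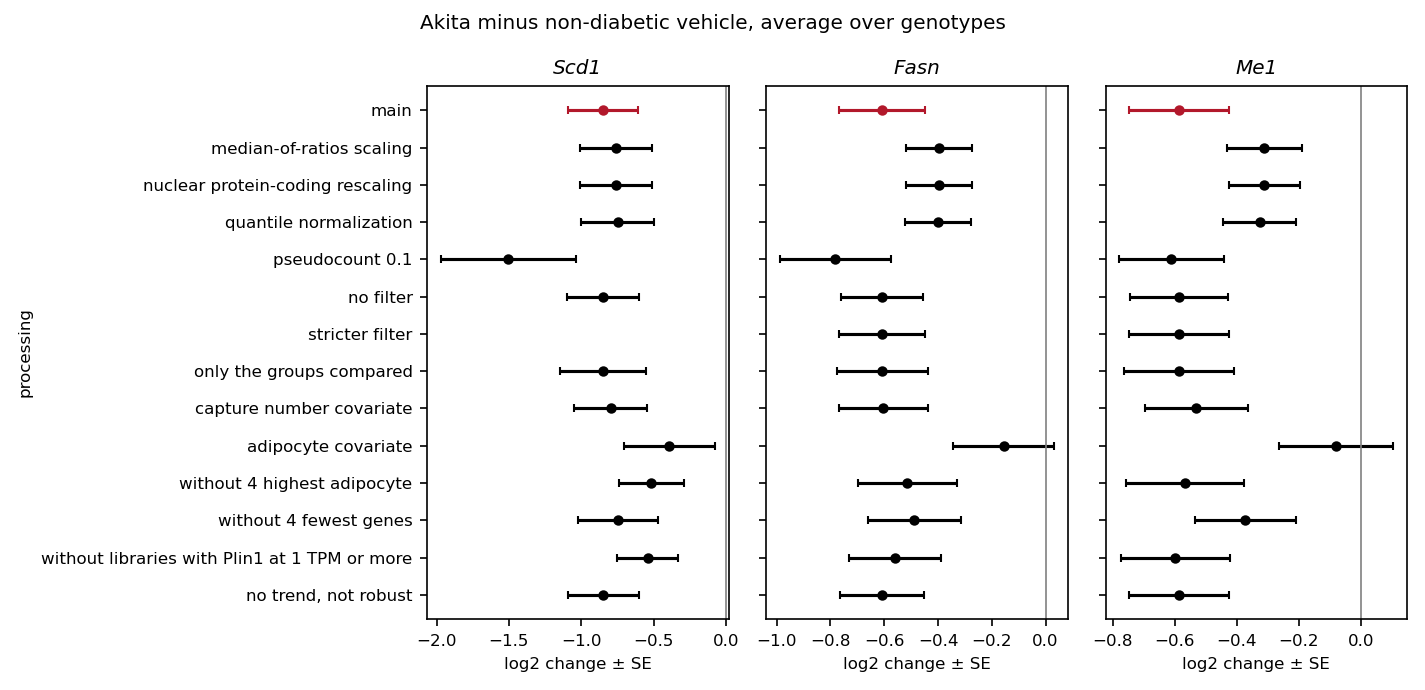
Log2 difference between Akita and non-diabetic vehicle tubules, averaged over genotypes, for Scd1, Fasn and Me1 under each processing (rows). Points are fitted differences and bars their SE, red for the fit reported in the text. All points lay below 0, and Scd1 has no point for the stricter filter, which it did not pass.

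The summed fat-cell markers differed alongside diabetes. Its 17 genes summed to 5.89 to 25.5 TPM in Akita wild-type vehicle and 18.7 to 56.6 TPM in non-diabetic wild-type vehicle libraries. In knockouts the sums were 12.1 to 21.2 TPM in Akita and 21.4 to 73.1 TPM in non-diabetic vehicle libraries. Only 5 of the 17 passed the filter, and all 5 had negative differences in wild type, of which Car3 (carbonic anhydrase 3) fell by 2.39 on the log2 scale (limma adjusted p = 0.0316). Lpl (lipoprotein lipase), which other cells also make, contributed a median of 57.99% of the summed level. Without Pparg, Lpl and Car3 the sums overlapped, at 2.19 to 7.96 TPM in Akita and 2.36 to 31.0 TPM in non-diabetic wild-type vehicle libraries. In knockouts they were 2.49 to 7.50 TPM in Akita and 4.97 to 31.1 TPM in non-diabetic vehicle libraries. The highest sum of each non-diabetic group came from its library with Plin1 above 1 TPM. With the log2 sum of all 17 genes as a covariate, the averaged differences were −0.39 for Scd1, −0.16 for Fasn and −0.08 for Me1 (limma adjusted p of 0.849 or more). The sum is itself lower in Akita tubules and carries the scaling of each library, so such a fit also removes part of any diabetes effect and of the scaling. Thick limb markers summed to a median of 26.6 TPM in Akita and 71.96 TPM in non-diabetic wild-type vehicle libraries, and late proximal tubule (S3) markers to 89.0 TPM in Akita and 176 TPM in non-diabetic ones. In knockouts the thick limb medians were 40.4 TPM in Akita and 42.9 TPM in non-diabetic vehicle libraries, and the S3 medians 97.3 TPM in Akita and 168 TPM in non-diabetic ones. The part of these cells in the result was not tested.

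**Figure D3:**
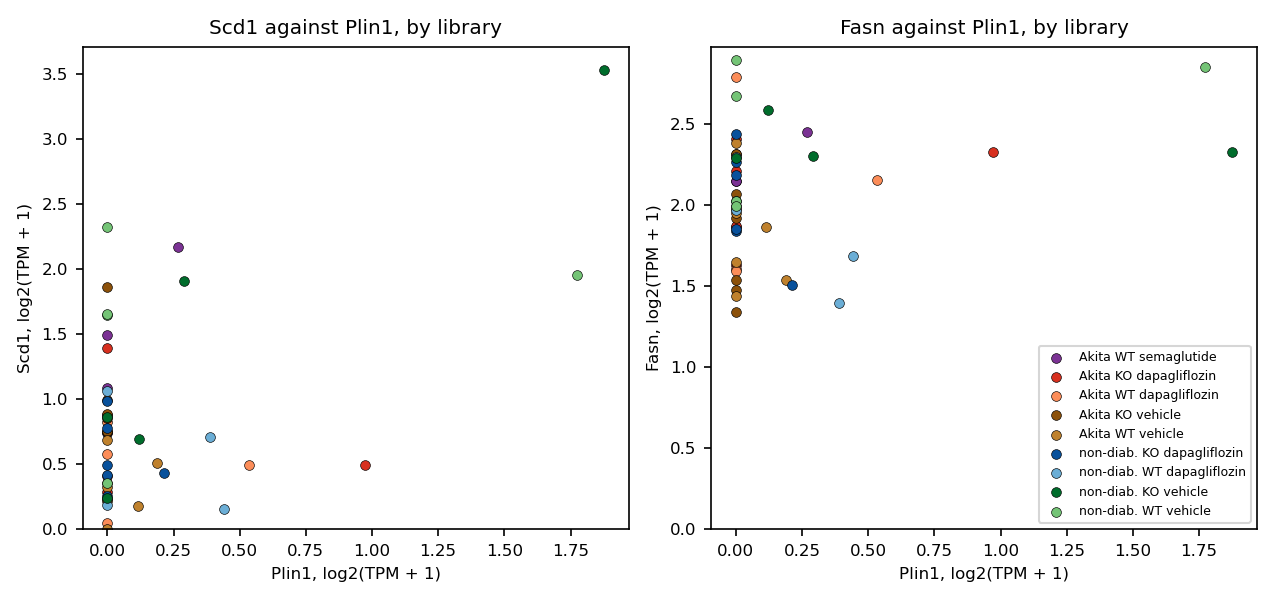
Scd1 (left) and Fasn (right) against the fat-cell gene Plin1, each as log2(TPM + 1), with 1 point per library coloured by group. Plin1 was at 0 in 36 libraries. The library with the highest Scd1, at 10.6 TPM, also had the highest Plin1, at 2.67 TPM. The library with the next highest Plin1, at 2.42 TPM, had Scd1 at 2.87 TPM.

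Other genes of the pathway were counted in 5 lists of 89 genes, 79 of which were tested: lipogenic regulators, acetyl-CoA and NADPH supply, elongation and desaturation, glycerolipid synthesis and storage, and mitochondrial fatty acid synthesis. For diabetes in wild type limma called 0 of the 79, with 69 negative, 10 positive and 10 at an unadjusted p under 0.05, all of these negative. Their median was −0.25, beside −0.15 over all genes. With median-of-ratios scaling the split was 51 negative and 28 positive. By list, 18 of 19 regulators, 14 of 15 supply genes, 15 of 15 elongation and desaturation genes, 17 of 22 glycerolipid genes and 5 of 8 mitochondrial genes were negative. Hsd17b12, which carries out the ketone reduction step of fatty acid elongation, averaged 6.36 ± 1.75 TPM in Akita and 10.6 ± 1.74 TPM in non-diabetic tubules (log2 difference −0.68 ± 0.23, limma adjusted p = 0.425). Mlx, the partner of ChREBP, averaged 3.54 ± 1.66 TPM in Akita and 5.57 ± 1.01 TPM in non-diabetic tubules.

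Averaged over genotypes, the lowest pathway genes in diabetes were Mlxip (log2 difference −0.58 ± 0.18, limma adjusted p = 0.0947), a glucose-sensing relative of ChREBP, and Insig1 (−0.58 ± 0.19, limma adjusted p = 0.125), which holds SREBP in the endoplasmic reticulum. The highest was Acss1, a mitochondrial enzyme that makes acetyl-CoA from acetate, at 13.6 ± 4.93 TPM in Akita and 9.20 ± 4.25 TPM in non-diabetic tubules. Its log2 difference was 0.55 ± 0.24 on TPM (limma adjusted p = 0.215) and 0.81 to 0.82 with the 3 other scalings, where it was called (limma adjusted p of 0.0401 to 0.0445). Mgll, which breaks down monoacylglycerol, averaged 8.67 ± 5.02 TPM in Akita and 5.88 ± 2.70 TPM in non-diabetic wild-type tubules. Usf1, a factor that binds E-boxes, differed by 0.27 ± 0.21 over both genotypes.

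**Figure D4:**
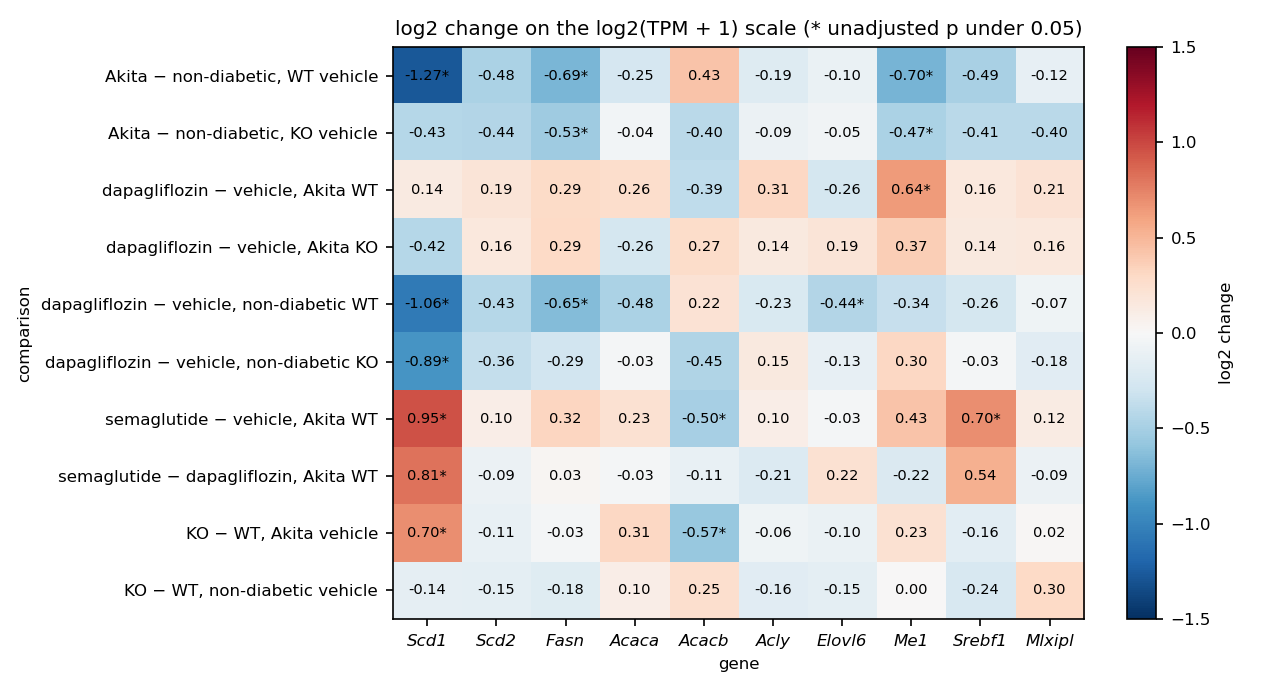
Log2 difference of the 10 genes (columns) in 10 pairwise comparisons (rows), on the log2(TPM + 1) scale, with red for higher and blue for lower values in the group named first. An asterisk marks an unadjusted p under 0.05, and no cell passed the adjusted threshold of 0.05. The lowest value is −1.27 for Scd1 with diabetes in wild type, and the highest is 0.95 for Scd1 with semaglutide.

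Dapagliflozin was compared with vehicle within each background and genotype. In diabetic tubules Me1 was the gene that stood highest. It had 19.96, 28.3, 27.8, 32.2 and 30.0 TPM in the 5 Akita wild-type dapagliflozin libraries, against 11.6, 17.1 and 29.7 TPM (lowest, median and highest) in the 6 vehicle libraries. All 5 treated libraries lay above the vehicle median and within or just above the vehicle range, and the log2 difference was 0.64 ± 0.23 (limma adjusted p = 0.327). In Akita knockouts Me1 averaged 27.2 ± 6.77 TPM with dapagliflozin and 20.8 ± 4.46 TPM with vehicle, and averaged over genotypes it differed by 0.51 ± 0.16 (limma adjusted p = 0.0893, higher in 9 of 11 libraries). With the 3 scalings that difference was 0.24 to 0.26. Scd1 had 0.0334, 0.492, 0.408, 0.279 and 0.768 TPM in Akita wild-type dapagliflozin libraries, within and just above the vehicle range of 0 to 0.610 TPM. Fasn averaged 3.47 ± 1.61 TPM with dapagliflozin and 2.57 ± 0.911 TPM with vehicle in Akita wild type.

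None of the 10 genes was called (0 of 10) for dapagliflozin in Akita wild type (1 at an unadjusted p under 0.05) and 0 in Akita knockouts (0 at an unadjusted p under 0.05). Over all genes limma called 0 in each genotype (0%), with 1289 at an unadjusted p under 0.05 in wild type and 967 in knockouts. Averaged over genotypes it called 0 of the 10 (1 at an unadjusted p under 0.05) and 104 of all genes (0.816%), with 2225 (17.5%) at an unadjusted p under 0.05. The 10 genes had a median difference of 0.16, beside 0.17 over all genes (0.02 without the 4 vehicle libraries with the fewest genes), and 7 were positive. With nuclear protein-coding rescaling 3 of the 10 were positive. Among the 79 other pathway genes, 67 were positive and 12 negative, with 25 positive and 1 negative at an unadjusted p under 0.05 and 0 called. With median-of-ratios scaling 51 were positive. Idh1, a cytosolic source of NADPH, averaged 66.5 ± 17.2 TPM with dapagliflozin and 45.2 ± 13.3 TPM with vehicle (log2 difference 0.56 ± 0.16, limma adjusted p = 0.0763). Hacd2, a dehydratase of fatty acid elongation, differed by 0.56 ± 0.21 and the lipid droplet coat gene Plin2 by −0.31 ± 0.22. Acss1 averaged 9.69 ± 4.81 TPM with dapagliflozin and 13.6 ± 4.93 TPM with vehicle, a difference of −0.50 ± 0.23 (limma adjusted p = 0.262). With the 3 other scalings Acss1 was called, with differences of −0.73 to −0.76 (limma adjusted p of 0.0404 to 0.0456). Among genes of the fat-cell list, Lpl rose by 0.93 (limma adjusted p = 0.0319) and Car3 by 1.33 (limma adjusted p = 0.0353). Lpl was above 0 in 48 libraries and Car3 in 47, beside 7 for Adipoq. Without Pparg, Lpl and Car3 the sums overlapped. In wild type they were 4.18 to 7.80 TPM with dapagliflozin and 2.19 to 7.96 TPM with vehicle. In knockouts they were 2.36 to 14.3 TPM with dapagliflozin and 2.49 to 7.50 TPM with vehicle. With the sum of the whole list as a covariate Me1 differed by 0.13. The part of fat cells in the result was not tested.

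In non-diabetic wild-type mice Scd1 had 0.634, 0.138, 1.08 and 0.111 TPM with dapagliflozin, against 2.13, 0.277, 2.14, 2.87 and 4.003 TPM with vehicle. All 4 treated libraries lay below the vehicle median, with 1 vehicle library among them, and the log2 difference was −1.06 ± 0.38 (limma adjusted p = 0.981), or −0.97 without the Plin1-containing library. Fasn had 1.63, 3.91, 2.91 and 2.21 TPM with dapagliflozin, against 3.07, 6.44, 5.36, 6.22 and 2.98 TPM with vehicle, a difference of −0.65 ± 0.25 (limma adjusted p = 0.981), or −0.56 without that library. Elovl6 averaged 0.301 ± 0.227 TPM with dapagliflozin and 0.782 ± 0.390 TPM with vehicle. Limma called 0 of the 10 genes (3 at an unadjusted p under 0.05) and 0 of all genes (0%, with 516 at an unadjusted p under 0.05). The vehicle libraries here are also those of the diabetes comparison, so the low values of Scd1 and Fasn in both are read against the same samples.

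In non-diabetic knockouts Scd1 averaged 0.496 ± 0.292 TPM with dapagliflozin and 2.99 ± 4.35 TPM with vehicle (log2 difference −0.89 ± 0.34, limma adjusted p = 1). Without non-diabetic knockout vehicle sample 3 the difference was −0.37. Me1 reached its highest group mean there, 36.0 ± 6.89 TPM with dapagliflozin, beside 29.6 ± 9.85 TPM with vehicle. Limma called 0 of the 10 genes (1 at an unadjusted p under 0.05) and 1 of all genes (0.00785%), with 494 (3.88%) at an unadjusted p under 0.05.

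Whether dapagliflozin acted differently in diabetic and non-diabetic wild-type tubules was tested as the difference between its effects. The values were 1.20 ± 0.51 for Scd1, 0.94 ± 0.34 for Fasn and 0.98 ± 0.34 for Me1, with limma adjusted p-values of 0.394, 0.327 and 0.324. For this difference limma called 0 of the 10 genes (3 at an unadjusted p under 0.05) and 0 of all genes (0%, with 1423 at an unadjusted p under 0.05), and the median over all genes was 0.32. With median-of-ratios scaling the values were 1.06, 0.59 and 0.53, and without the Plin1-containing library Scd1 was at 1.11 and Fasn at 0.85. In knockouts Acacb, at 0.72 ± 0.32, was the 1 gene at an unadjusted p under 0.05, with 0 of the 10 and 0 of all genes called (0%, 634 at an unadjusted p under 0.05).

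Semaglutide was given to Akita wild-type mice alone, and Scd1 was the gene that stood highest with it. Each sample title holds a number, called the capture number here. The labels do not state what it records. It ran from 88 to 99 for semaglutide and from 1 to 82 for Akita wild-type vehicle libraries, so the 2 ranges do not overlap. With capture number as a covariate over all libraries, Scd1 differed by 0.84 ± 0.38 and Srebf1 by 0.50 ± 0.36 (limma adjusted p = 0.999817 each). Between these 2 groups alone, capture number and treatment cannot be told apart. Scd1 had 1.82, 0.671, 1.13, 3.49 and 0.839 TPM in the 5 semaglutide libraries, against 0, 0.207 and 0.610 TPM (lowest, median and highest) in the 6 vehicle libraries. The groups did not overlap, which also held for 0.369% of all tested genes in this direction. The means were 1.59 ± 1.15 TPM with semaglutide and 0.263 ± 0.221 TPM with vehicle, a log2 difference of 0.95 ± 0.34 (limma adjusted p = 0.823). Among fat-cell genes, Adipoq was at 0.402 TPM in semaglutide sample 2 and 0.138 TPM in sample 4, and at 0 in all 6 vehicle libraries. Plin1 was at 0.204 TPM in semaglutide sample 5, which had the highest Scd1. With vehicle it was at 0.140 TPM in sample 4 and 0.0831 TPM in sample 6. The highest semaglutide value also exceeded the highest vehicle value for Cidea, Cidec, Adrb3, Ucp1, Plin4, Cfd, Slc2a4, Lpl and Car3. It was below that value for Fabp4, Lipe, Pparg and Tshr, and Lep and Retn were at 0 in both groups. Cidea reached 0.493 TPM and Cidec 0.218 TPM, both at 0 with vehicle. Fabp4 reached 4.54 TPM, beside 5.09 TPM with vehicle, and Tshr 0.0299 TPM, beside 0.270 TPM. Srebf1 had 4.46, 8.68, 4.26, 13.0 and 12.9 TPM with semaglutide, against 2.27, 5.19 and 6.03 TPM (lowest, median and highest) with vehicle. In 3 semaglutide libraries it was above every vehicle library and in 2 it was within their range, with a log2 difference of 0.70 ± 0.33 (limma adjusted p = 0.845). Acacb averaged 0.611 ± 0.356 TPM with semaglutide and 1.51 ± 1.35 TPM with vehicle. Fasn averaged 3.39 ± 0.679 TPM with semaglutide and 2.57 ± 0.911 TPM with vehicle, and Me1 averaged 24.1 ± 6.85 TPM with semaglutide and 18.1 ± 6.86 TPM with vehicle.

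For semaglutide limma called 0 of the 10 genes (3 at an unadjusted p under 0.05) and 0 of all genes (0%, with 742 at an unadjusted p under 0.05). The 10 genes had a median difference of 0.18, beside 0.13 over all genes. Of the 79 other pathway genes 66 were positive, and 39 were with median-of-ratios scaling. Fads2, a desaturase of polyunsaturated fatty acids, averaged 11.4 ± 3.22 TPM with semaglutide and 7.60 ± 2.24 TPM with vehicle. Prkaa2, a catalytic subunit of AMPK, averaged 8.30 ± 2.32 TPM with semaglutide and 5.56 ± 1.53 TPM with vehicle. Plin2 averaged 1.42 ± 0.633 TPM with semaglutide and 2.43 ± 1.58 TPM with vehicle. The fat-cell list summed to 12.6 to 40.9 TPM with semaglutide and 5.89 to 25.5 TPM with vehicle. Without Pparg, Lpl and Car3 the sums were 4.46 to 10.4 TPM with semaglutide and 2.19 to 7.96 TPM with vehicle. The part of fat cells in the result was not tested.

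Set against dapagliflozin, also in Akita wild-type mice, Scd1 averaged 1.59 ± 1.15 TPM with semaglutide and 0.396 ± 0.271 TPM with dapagliflozin, with overlapping values. Capture numbers ran from 4 to 78 for dapagliflozin, below the 88 to 99 of semaglutide. Between these groups alone, capture number and treatment cannot be told apart. With capture number as a covariate over all libraries, Scd1 differed by 0.72 ± 0.38 (limma adjusted p = 0.993). Without the covariate the log2 difference was 0.81 ± 0.36 (limma adjusted p = 1), higher in 5 of 5 libraries than the dapagliflozin median. Here limma called 0 of the 10 genes (1 at an unadjusted p under 0.05) and 0 of all genes (0%, with 332 at an unadjusted p under 0.05). Against non-diabetic wild-type vehicle tubules, Scd1 differed by −1.13 ± 0.36 in dapagliflozin-treated Akita tubules (limma adjusted p = 1), or −1.03 without the Plin1-containing library, and by −0.31 ± 0.36 in semaglutide-treated ones (limma adjusted p = 1), or −0.22 without it. Capture numbers of these non-diabetic libraries ran from 54 to 84, also below those of semaglutide. In these comparisons limma called 0 of the 10 genes, with 1 at an unadjusted p under 0.05 for dapagliflozin and 0 for semaglutide. It called 0 of all genes in each (0%), with 289 at an unadjusted p under 0.05 for dapagliflozin and 338 for semaglutide.

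Loss of Sglt1 was compared with wild type in vehicle-treated mice. In Akita mice Scd1 had 0.674, 0.829 and 2.64 TPM (lowest, median and highest) in knockouts, against 0, 0.207 and 0.610 TPM in wild type. The groups did not overlap, as for 0.0235% of all tested genes in this direction, and the log2 difference was 0.70 ± 0.33 (limma adjusted p = 1). These wild-type libraries, the group with the lowest mean Scd1, are also those of the diabetes and semaglutide comparisons. The Scd1 differences in these comparisons are therefore read against the same low samples and are not separate observations. Acacb averaged 0.565 ± 0.503 TPM in knockouts and 1.51 ± 1.35 TPM in wild type (log2 difference −0.57 ± 0.22, limma adjusted p = 1), with 2 wild-type libraries above 2 TPM and the rest within or near the knockout range. Limma called 0 of the 10 genes (2 at an unadjusted p under 0.05) and 2 of all genes (0.0157%), with 249 (1.95%) at an unadjusted p under 0.05. In non-diabetic mice the 10 differences ran from −0.24 for Srebf1 to 0.30 for Mlxipl, with 0 of the 10 called and 0 at an unadjusted p under 0.05. Of all genes 3 were called (0.0235%), with 587 (4.61%) at an unadjusted p under 0.05. Averaged over backgrounds and treatments limma again called 0 of the 10 genes (0 at an unadjusted p under 0.05) and 3 of all genes (0.0235%).

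**Figure D5:**
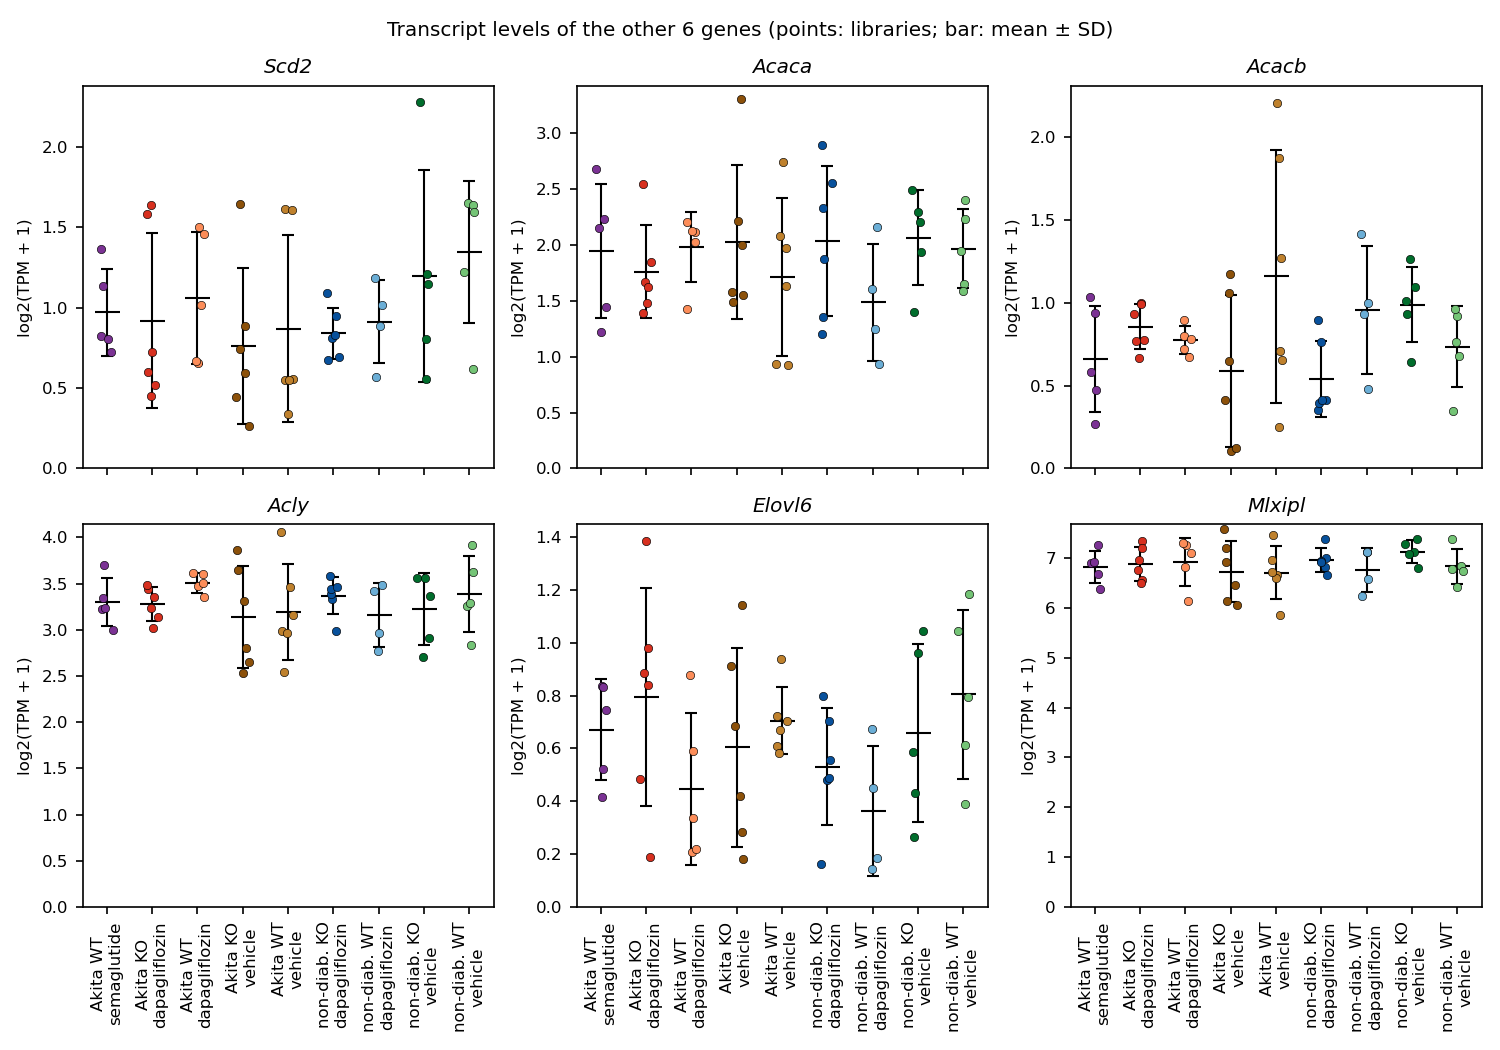
Transcript levels of Scd2, Acaca, Acacb, Acly, Elovl6 and Mlxipl as log2(TPM + 1) in the 9 sample groups. Points are libraries, and bars give the mean ± SD of the log2 values. The groups overlap in every panel, and Acacb spreads most in Akita wild-type vehicle tubules, from 0.187 to 3.59 TPM.

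After the group means were subtracted, all 36 pairs among the 9 genes other than Scd1 were positively correlated over the 48 libraries, with Pearson r of 0.15 to 0.64, the highest for Srebf1 and Mlxipl. Scd1 correlated with these genes at −0.21 (Elovl6) to 0.18 (Acaca). These are descriptions without a test, since libraries share their scaling. Most like Fasn among 10085 protein-coding genes were Traf4 (r = 0.75), Drosha, Rrs1 and Klhl3 (r = 0.73 each) and Lurap1l (r = 0.72). Most like Scd1 were H2-Aa (r = 0.50), H2-DMa (0.48), Epha2 (0.47), Cebpb (0.46) and Vcam1 (0.45). Without the 2 Plin1-containing libraries Vcam1 was at 0.13 and Epha2 at 0.48.

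The summed fat-cell markers and the genes were also correlated over the 48 libraries as deviations from group means. The p-values came from 100000 permutations within groups and were adjusted over the 10 relations. Those printed are for Pearson r, also where rho stands beside it, unless stated for rho. On TPM, Acly had Pearson r = 0.65 (Spearman rho = 0.62, adjusted permutation p = 0.0001, from a p of 1e-05 that is the smallest possible). Me1 had r = 0.56 (rho = 0.53) and Fasn r = 0.53 (rho = 0.55), both with an adjusted permutation p of 0.0008, and Scd1 had r = 0.32 (rho = 0.21, adjusted permutation p = 0.109). The scaling of each library enters both the marker sum and the genes, so these p-values do not separate the markers from the scaling. With both sides rescaled by median-of-ratios factors, an alternative chosen after seeing the data, 0 of the 10 relations had an adjusted permutation p under 0.05. There Acly had r = 0.41 (rho = 0.38, adjusted permutation p = 0.0897), Scd1 r = 0.40 (rho = 0.26, adjusted permutation p = 0.180) and Fasn r = 0.24 (rho = 0.26, adjusted permutation p = 0.180). Elovl6 had r = −0.38 after rescaling (rho = −0.38, adjusted permutation p = 0.0799) and r = 0.05 on TPM. Without the 2 samples farthest from the median of the marker sum, Scd1 was at r = 0.17 on TPM.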

How the data were processed

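The authors deposited TPM values for 48 of 54 labelled samples; the other 6 were not analysed here. Per the submitters' processing notes, Salmon and MultiQC 1.8 were used with GRCm38; the annotation release is not given in the sources used here. The deposited table's own name states that outliers were removed, by a rule not given there. Each table column was matched to a sample by its title, and groups came from the labels. Sample numbers within a group were assigned here, in the order in which the samples are listed. Values were analysed as log2(TPM + 1), computed here from the deposited TPM. The 12742 genes that reached 1 TPM in 5 or more libraries were fitted with 9 group means in limma 3.58.1 (trended, robust variances, statmod 1.5.0, R 4.3.3; 39 residual degrees of freedom) and 18 two-sided contrasts, called at a Benjamini-Hochberg adjusted p under 0.05 within a contrast. Scripts were tested on simulated data. The genes, lists, contrasts and alternatives were chosen with earlier results of these data known. Named were all 10 genes, the 2 highest and 2 lowest pathway genes in each of 4 contrasts, called pathway genes and the 5 genes most like Scd1 and Fasn. Of the listed genes, 6 were found under an older symbol. Nuclear protein-coding genes, counted without the gene Lars2, took 5.98% to 14.1% of a library, so the remaining RNA shapes every TPM. The kinds of RNA in that remainder were not counted.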

Additional observations from a re-analysis of the deposited data

Results flagged for a closer look

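Single libraries stood apart from their group in 11 of the 90 combinations of gene and group, by a gap to the nearest value that exceeded Dixon's 95% critical value. Chance gives such a gap in about 1 in 20 groups if values are normally distributed and independent. The values here were untransformed TPM of genes that share libraries, so 11 of 90 cannot be weighed against that share.

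Among Akita knockout vehicle libraries, sample 3 had the highest Scd1 (2.64 TPM), Acaca (8.85 TPM) and Srebf1 (13.1 TPM), sample 1 the highest Scd2 (2.12 TPM) and sample 6 the lowest Me1 (11.9 TPM). Among Akita knockout dapagliflozin libraries, sample 2 had the highest Scd1 (1.63 TPM) and sample 3 the highest Acaca (4.82 TPM). Non-diabetic knockout vehicle sample 3 had the highest Scd1 (10.6 TPM) beside a Plin1 of 2.67 TPM, and sample 2 the highest Scd2 (3.84 TPM). Akita wild-type dapagliflozin sample 1 had the lowest Acaca (1.69 TPM), and Akita wild-type vehicle sample 4 the highest Elovl6 (0.918 TPM).

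Acacb had a mean 0.2502 TPM above vehicle with dapagliflozin in Akita knockouts and −0.799 TPM relative to vehicle in Akita wild type, with every treated library on that side of the vehicle median. The difference between these effects was not tested.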

How the results depend on the processing

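Under 13 alternative settings and with each of the 48 libraries left out, 0 of the 10 genes was called in 16 of the 18 comparisons. For diabetes averaged over genotypes 1 gene, Fasn, was called with a stricter filter (limma adjusted p = 0.0478), which tests fewer genes, and 0 to 3 genes were called with 1 library left out. The count was 3 without Akita knockout vehicle sample 3 or non-diabetic knockout vehicle sample 1, and 2 without Akita wild-type vehicle sample 1 or non-diabetic wild-type vehicle sample 6. It was 1 without Akita wild-type dapagliflozin sample 2, Akita knockout vehicle samples 1 or 2, non-diabetic wild-type dapagliflozin sample 3 or non-diabetic wild-type vehicle sample 3. For dapagliflozin in Akita averaged over genotypes, 0 to 1 gene was called with 1 library left out (Me1 without Akita wild-type vehicle sample 1, limma adjusted p = 0.0276). Of 1632 recomputed differences, for the 27 with an unadjusted p under 0.05, 1615 kept their sign and side of the threshold and 17 kept their sign and passed it.

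Over all genes, the diabetes average called 71 genes, and 0 with the fat-cell covariate, 3 without the 4 libraries highest in fat-cell markers, 4 without the 4 with fewest genes, 14 without the Plin1-containing libraries, 17 with capture number as a covariate, 18 without a filter, 22 to 30 with the 3 scalings, 30 with only the groups compared and 11 to 313 with 1 library left out. With median-of-ratios scaling 10 of 22 calls were lower, beside 68 of 71. Dapagliflozin in Akita, averaged, called 104 genes, and 0, 2, 0, 74, 74, 6, 54 to 72, 3 and 9 to 378 under the same settings. With median-of-ratios scaling 31 of 54 were higher, beside 102 of 104. With the stricter filter 91 genes were called for the diabetes average and 150 for dapagliflozin. With 0.1 in place of 1 added before the log2 the counts were 75 and 116. Without trended, robust variances they were 65 and 103. Diabetes in wild type called 3 genes and 0 to 12 over the settings, and each of the other comparisons called at most 6 under any setting or with any library left out.

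Correlations with the fat-cell markers moved with the list. Without Pparg, Lpl and Car3, r was 0.19 for Acaca, 0.31 for Acacb, 0.17 for Me1 and 0.025 for Srebf1 (adjusted permutation p of 0.210, 0.0593, 0.330 and 0.872). With that list r was 0.49 for Acly, 0.38 for Fasn and 0.36 for Mlxipl (adjusted permutation p of 0.0122, 0.0383 and 0.0383). For Fasn Spearman rho was 0.32 there (adjusted permutation p = 0.0896 for rho). Scd1, Scd2 and Elovl6 had an adjusted permutation p above 0.05 for r with either list. For Scd2 r was 0.37 without the Plin1-containing libraries (adjusted permutation p = 0.0348), a setting chosen after seeing the data. With the marker sum and the genes rescaled by median-of-ratios factors, also chosen after seeing the data, r was 0.24 for Fasn, 0.16 for Acaca, 0.23 for Acacb, 0.41 for Acly, −0.38 for Elovl6, 0.27 for Me1, 0.011 for Srebf1 and 0.11 for Mlxipl, and 0 of the 10 relations passed an adjusted permutation p of 0.05 (2 at an unadjusted p under 0.05). The cause of these shifts was not tested. No paired analysis was possible because the labels give no replicate numbers and tie no samples to each other. TPM holds no depth, so counting error could not be given.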
